A study of Homo sapiens with 9 samples.

Results

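Genes that encode the enzymes, readers and motor subunits acting on chromatin were examined in WI-38 cells after the anthracycline doxorubicin. WI-38 cells are human diploid fibroblasts of embryonic lung. The genes were chosen by symbol, as those whose names begin with a family name of histone methyltransferases, demethylases, acetyltransferases, deacetylases, sirtuins, arginine methyltransferases, ATP-dependent remodellers, DNA methylation enzymes, or bromodomain, chromodomain and PHD finger proteins. This rule found 94 of the 6499 genes in the deposited table. Of these, 87 were classed as protein-coding chromatin genes and 3 as matches outside chromatin (SETD6, UHRF1BP1 and UHRF1BP1L). SETD6 is itself a methyltransferase, so leaving it out of the methyltransferase class was a choice. The other 4 were noncoding genes or pseudogenes named after a chromatin gene (SMARCA5-AS1, HDAC4-AS1, KDM7A-DT and EP400P1).

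All cells were at population doubling 30. The control group was given DMSO in place of doxorubicin, the doxorubicin group was given 1 μM doxorubicin for 12 h, and both groups then stayed for 48 h in medium with DMSO, with 3 libraries per group. A further group of 3 libraries, which received oridonin after doxorubicin, was not analysed here. The study speaks in general of independent experiments, but neither the labels nor the sequencing methods say that these libraries came from separate cultures, so p-values measure the spread between these libraries, which may be technical. The table lists only genes that had passed the study's own thresholds on the same 6 libraries, so each gene named here was already listed as changed, and no fit on these values is an independent test.

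Chromatin enzymes add or remove small chemical groups on histone tails and on DNA, and remodellers use ATP to slide or evict nucleosomes. Methylation of H3K27 by Polycomb repressive complex 2, which is built around EZH2, SUZ12 and EED, keeps genes silent. DNA methylation is copied onto newly made DNA by DNMT1, which UHRF1 brings to the replication fork. Several of these genes are known to be expressed mostly in dividing cells, and loss of EZH2 and DNMT1 is a known feature of cells that stop dividing.

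The header names no unit, and values were read as TPM, a level per transcript length with each library brought to 1 common total. Log2 fold changes, or log2 differences, are those of log2(TPM + 1), doxorubicin minus control, which understate the change of low genes. A gene was called lower or higher at a Benjamini-Hochberg adjusted p under 0.05 in limma over the 5721 genes that averaged 1 TPM or more. The depth of the libraries is unknown. If the values are TPM, which could not be checked, the listed genes held 54.3 to 54.8% of all TPM in the control libraries and 58.6 to 60.0% in the doxorubicin libraries. Of 11 fibroblast markers, 6 were listed and summed to 10320 to 10640 TPM in control and 9424 to 11500 TPM in doxorubicin libraries. FN1 was called higher and made up the largest part of these sums, while the other 5 (COL3A1, PDGFRA, PDGFRB, COL1A1 and COL1A2) were called lower, with log2 fold changes from -1.48 to -0.38. All 23 markers of cycling cells were listed, 22 called lower and 1 (PCNA) higher, and their sum went from 752 to 865 TPM in control to 306 to 356 TPM in doxorubicin libraries. Of the markers of other cell types, none of the 4 endothelial genes was listed, 3 of 5 epithelial genes were, with a sum of 136 to 151 and 283 to 307 TPM, 2 of 4 smooth muscle genes were, with a sum of 395 to 430.0 and 183 to 210 TPM, and 2 of 4 immune genes were, with a sum of 45.02 to 48.97 and 87.4 to 93.7 TPM. KRT19 and KRT18 were called higher and KRT8 was not called, and ACTA2 was called lower. Nearly all of the immune sum was CD68, at 44.94 to 48.96 TPM in control and 87.34 to 93.42 TPM in doxorubicin libraries. CD68 was called higher (log2 fold change 0.94, adjusted p = 2.04e-06 from limma). PTPRC, the defining immune gene, stayed at 0.01 to 0.62 TPM. In bulk RNA, fewer cells of a kind and less RNA per cell cannot be told apart.

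Most chromatin genes were lower after doxorubicin. Of the 88 that averaged 1 TPM or more, 70 (79.5%) were called lower and 4 (4.55%) higher, while of all genes tested 48.7% were called lower and 28.2% higher, or 76.9% in either direction. These 88 include SETD6 and UHRF1BP1L, which were classed outside chromatin, and SMARCA5-AS1 and EP400P1, which are noncoding or a pseudogene. The median log2 fold change was -0.51 over the 88 genes and -0.28 over all genes tested. The groups did not overlap in 67 of the 88 genes with doxorubicin lower (76.1%, against 48.4% of all genes tested) and in 7 with doxorubicin higher (7.95%, against 32.3%). Only 7 of the 88 (7.95%) had a doxorubicin mean under 0.5 of the control mean, against 10.4% of all genes tested. The sum of the 94 genes was 1319 to 1430.0 TPM in control and 950.4 to 1118 TPM in doxorubicin libraries.

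This balance depended on how the libraries were scaled. With the medians of the libraries set equal, 43 of the 88 genes were called lower and 14 higher (33.9% and 45.6% of all genes tested), and after quantile normalization 33 were lower and 10 higher (30.9% and 37.7% of all genes tested). The lower share of the calls was thus 94.6% on the deposited values and 75.4% and 76.7% on the other 2 scales. On all 3 scales, 29 chromatin genes were called lower (33.0%, against 28.5% of all genes tested) and 4 were called higher (4.55%, against 25.8%). The genes higher on all 3 scales were HDAC5, ING4, SIRT5 and SETD6, the last of which was classed outside chromatin. The noncoding SMARCA5-AS1 is among the 29 called lower. No gene was called in opposite directions on the deposited and the quantile normalized values.

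**Figure D1:**
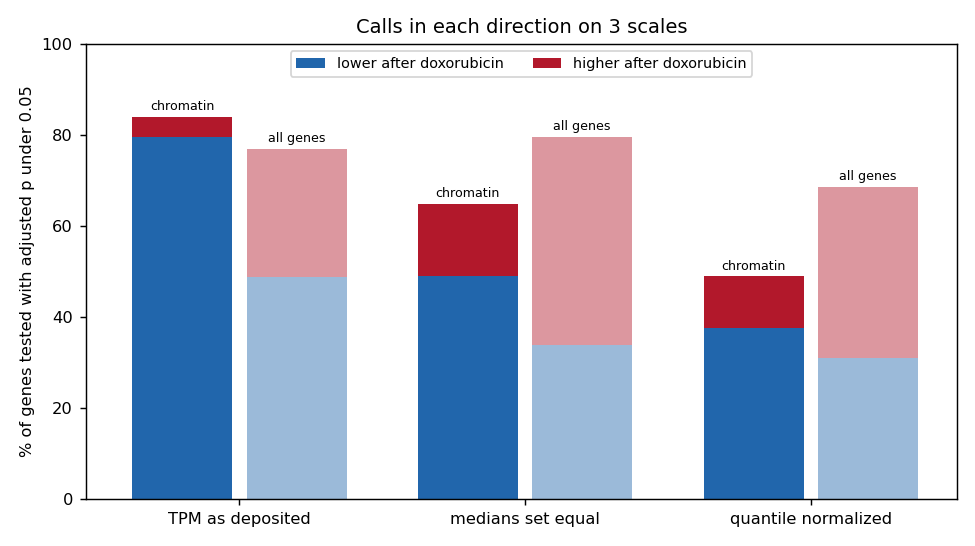
Share of genes tested that were called lower (blue) or higher (red) after doxorubicin at an adjusted p under 0.05 in limma, for the 88 chromatin genes (dark bars) and all 5721 genes tested (pale bars), on the deposited TPM and on 2 other scalings. The lower share of the chromatin genes drops from 79.5% to 48.9% and 37.5%, and it lies above that of all genes on each scale.

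The DNA methylation machinery held the gene that fell most. UHRF1 (ENSG00000276043, GRCh38 chromosome 19, 4903080 to 4962154), which reads hemimethylated DNA and recruits DNMT1, had 20.15, 21.23 and 19.49 TPM in control and 4.11, 3.16 and 4.88 TPM in doxorubicin libraries. The groups were far apart, with a log2 difference of -2.09 ± 0.14 (SE; limma adjusted p = 8.75e-07). DNMT1 (ENSG00000130816, chromosome 19, 10133345 to 10231286), the maintenance methyltransferase, had 45.54, 42.35 and 41.29 TPM and then 19.6, 20.32 and 25.26 TPM, a log2 difference of -0.96 ± 0.10 (SE; limma adjusted p = 3.43e-05). UHRF2, the paralog of UHRF1, was also called lower, with a log2 fold change of -0.52. The 3 genes were lower on all 3 scales.

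TET2, which oxidizes methylated cytosine, was not called. It had 1.14, 15.16 and 1.25 TPM in control and 0.66, 0.54 and 0.89 TPM after doxorubicin, so that its high control mean rests on control replicate 2, which was 12.1 times the group median, and without that library the gene averaged under 1 TPM. Its log2 difference was -1.34 with an adjusted p of 0.186 in limma. DNMT3B, a de novo methyltransferase, and TET3 had means under 1 TPM and were not tested. DNMT3B had 0.93, 0.96 and 0.9 TPM in control and 0.53, 0.52 and 0.51 TPM in doxorubicin libraries, and TET3 had 0.8, 0.87 and 0.66 TPM and then 0.39, 0.3 and 0.47 TPM. Neither overlapped between the groups.

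Within Polycomb repressive complex 2 the subunits parted. EZH2 (ENSG00000106462, chromosome 7, 148807383 to 148884321), the catalytic subunit, had 8.57, 6.57 and 7.15 TPM in control and 1.91, 1.74 and 1.77 TPM in doxorubicin libraries, a log2 difference of -1.58 ± 0.13 (SE; limma adjusted p = 4.76e-06). SUZ12 (ENSG00000178691, chromosome 17, 31937018 to 32001045), its scaffold, had 7.84, 8.71 and 7.24 TPM and then 3.91, 4.01 and 4.53 TPM, a log2 difference of -0.79 (limma adjusted p = 0.000299). PHF19 (ENSG00000119403, chromosome 9, 120855652 to 120894896), a Polycomb-like protein that helps the complex bind chromatin, had 32.35, 36.38 and 34.29 TPM and then 12.34, 14.3 and 13.75 TPM, a log2 difference of -1.29 (limma adjusted p = 2.12e-06). All 3 were lower on each scale, with no overlap between the groups.

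EED (ENSG00000074266, chromosome 11, 86244544 to 86278813), the subunit that binds trimethylated H3K27, had 9.36, 8.98 and 8.38 TPM in control and 10.02, 9.26 and 9.73 TPM in doxorubicin libraries. These ranges overlapped, and its log2 fold change of 0.11 was not past the threshold (adjusted p = 0.353 from limma). On the other scales it was called higher, with log2 fold changes of 0.37 with equal medians and 0.42 after quantile normalization. Those scales have no reference of genes outside the list, so they cannot settle whether EED rose. PHF1, the other Polycomb-like gene listed, had 37.65, 40.31 and 41.48 TPM and then 45.47, 46.06 and 43.17 TPM, with an adjusted p of 0.057 in limma and higher calls on the other 2 scales.

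A ratio of 2 genes within a library is not changed by a single factor applied to all genes of that library, though quantile normalization can change it. The ratio of EZH2 to EED was 0.92, 0.73 and 0.85 in the control libraries and 0.19, 0.19 and 0.18 in the doxorubicin libraries. That of SUZ12 to EED was 0.89 ± 0.070 in control and 0.43 ± 0.038 after doxorubicin (SD, n = 3 each), and that of PHF19 to PHF1 was 0.863 ± 0.038 and 0.300 ± 0.025 (SD, n = 3 each). The ratio of UHRF1 to UHRF2 was 1.37 ± 0.146 and 0.398 ± 0.031 (SD, n = 3 each). The groups did not overlap in any of these 4 ratios, and members of 1 complex or family therefore changed unequally. The pairs were chosen after their values were seen, and no test is given.

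**Figure D2:**
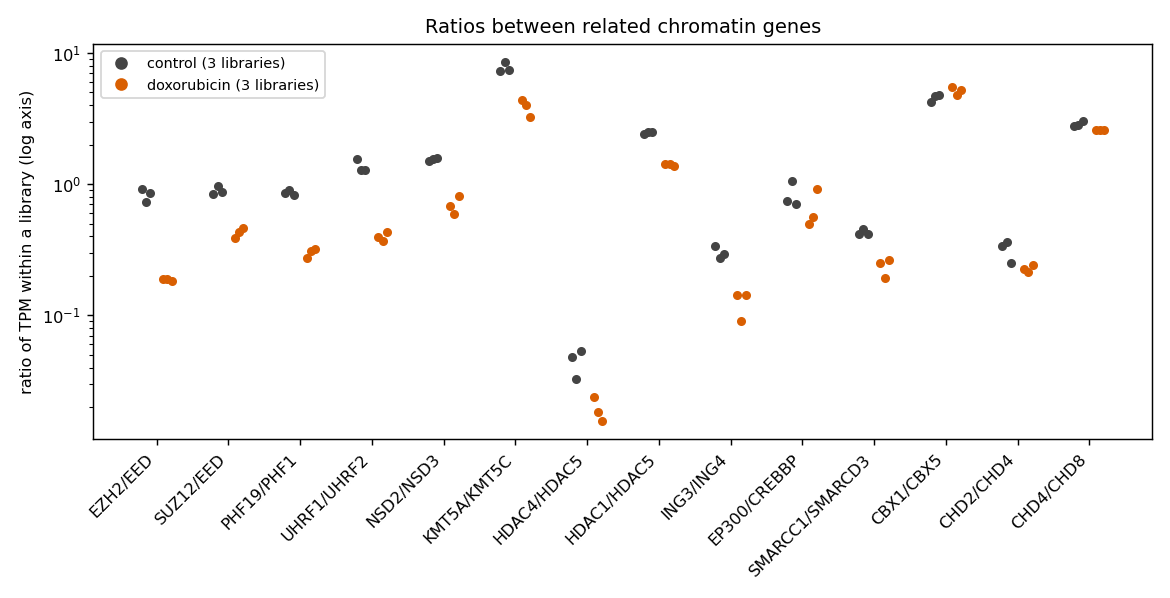
Ratio of the TPM of 2 related chromatin genes within each library, on a log axis, for 3 control (dark grey) and 3 doxorubicin (orange) libraries. EZH2/EED drops from a mean of 0.83 to 0.19 and PHF19/PHF1 from 0.863 to 0.300, while the groups overlap in EP300/CREBBP.

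Sequence around the RefSeq start site is shown for the 5 genes with the largest called falls and for EED as the subunit of the same complex that was not called. RefSeq promoter windows (250 bases before to 50 after the start, GRCh38.p14) matched 78 of the 94 genes by symbol. Each is written 5′ to 3′ on the strand of the gene, with capitals on matches of either strand to E2F-like motifs (TTTGGCG or TTTCGCG or TTTCCCG), to the cell cycle motif CHR (TTTGAA or TTCGAA) and to CCAAT.
UHRF1, chr19:4909251-4909550, plus strand: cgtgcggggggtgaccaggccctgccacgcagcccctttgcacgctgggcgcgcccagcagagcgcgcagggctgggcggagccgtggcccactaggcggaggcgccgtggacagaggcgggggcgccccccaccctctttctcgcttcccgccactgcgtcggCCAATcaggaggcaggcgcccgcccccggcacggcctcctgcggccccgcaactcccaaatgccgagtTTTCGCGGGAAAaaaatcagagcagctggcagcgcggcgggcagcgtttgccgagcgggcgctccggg
EZH2, chr7:148884242-148884541, minus strand: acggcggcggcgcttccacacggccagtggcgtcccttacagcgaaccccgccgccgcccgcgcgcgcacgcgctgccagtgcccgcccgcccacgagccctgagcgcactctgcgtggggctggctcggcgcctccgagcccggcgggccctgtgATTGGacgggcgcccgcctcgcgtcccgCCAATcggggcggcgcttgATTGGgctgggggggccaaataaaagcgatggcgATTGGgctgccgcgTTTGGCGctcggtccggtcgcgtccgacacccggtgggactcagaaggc
NSD2, chr4:1871143-1871442, plus strand: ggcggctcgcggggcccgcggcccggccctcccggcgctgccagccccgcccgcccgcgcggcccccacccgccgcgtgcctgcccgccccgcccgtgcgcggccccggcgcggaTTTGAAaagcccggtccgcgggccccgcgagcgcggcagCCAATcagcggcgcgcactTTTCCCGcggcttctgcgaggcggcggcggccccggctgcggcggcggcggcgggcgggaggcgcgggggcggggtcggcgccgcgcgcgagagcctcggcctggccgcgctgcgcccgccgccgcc
PHF19, chr9:120868862-120869161, minus strand: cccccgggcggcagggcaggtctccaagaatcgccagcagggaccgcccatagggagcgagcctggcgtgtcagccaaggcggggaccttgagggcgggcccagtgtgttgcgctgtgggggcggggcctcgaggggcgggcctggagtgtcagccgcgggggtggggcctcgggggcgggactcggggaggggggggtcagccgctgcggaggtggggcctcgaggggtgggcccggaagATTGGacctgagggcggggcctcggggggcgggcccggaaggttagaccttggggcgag
DNMT1, chr19:10194904-10195203, minus strand: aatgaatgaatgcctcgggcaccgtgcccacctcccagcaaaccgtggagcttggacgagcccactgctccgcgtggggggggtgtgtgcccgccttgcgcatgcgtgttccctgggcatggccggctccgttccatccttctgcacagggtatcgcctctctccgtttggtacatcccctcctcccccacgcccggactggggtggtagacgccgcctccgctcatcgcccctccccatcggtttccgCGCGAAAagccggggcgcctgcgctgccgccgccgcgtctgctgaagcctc
EED, chr11:86244503-86244802, plus strand: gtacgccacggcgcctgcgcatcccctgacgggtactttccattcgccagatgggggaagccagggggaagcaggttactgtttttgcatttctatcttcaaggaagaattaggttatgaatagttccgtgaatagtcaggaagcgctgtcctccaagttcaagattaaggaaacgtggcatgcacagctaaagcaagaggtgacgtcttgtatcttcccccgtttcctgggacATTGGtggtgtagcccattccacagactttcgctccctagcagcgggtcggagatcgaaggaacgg
In UHRF1, TTTCGCG and the reverse complement of TTTCCCG overlap in 1 run just before the start. EZH2 held 1 E2F-like match, at the start site, and 4 CCAAT matches. NSD2 held all 3 kinds, and DNMT1 held an E2F-like match next to the start. In the windows shown, PHF19 and EED each held a single CCAAT match and no E2F-like one. The windows of PHF19, DNMT1 and UHRF1 lie inside the GENCODE spans of these genes, so any start farther upstream is not shown.

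Across the family, an E2F-like motif stood in 12 of the 60 promoters of genes called lower (20.0%), in 0 of the 3 of genes called higher and in 2 of the 11 of genes not called (18.2%). Of the 26 promoters of genes lower on all 3 scales, 9 held one (34.6%). No share over all genes lower on all 3 scales was computed for any motif, so the shares of these 26 have no matching background. The E2F-like share was 7.28% over all 27305 RefSeq promoters. It was 13.9% and 10.2% over the promoters of all genes called lower and higher on the deposited values. CHR matches stood in 13.3% of the promoters of chromatin genes called lower and in 16.6% of all RefSeq promoters, and CCAAT in 18 of 60 and in 35.7%. CCAAT stood in 12 of the 26 promoters of genes lower on all 3 scales (46.2%) and in 7 of the 11 of genes not called (63.6%). A match is a string of letters, not a bound site.

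Lysine methyltransferases were the largest class, with 15 genes, all tested, of which 14 were called lower and 0 higher, at a median of -0.63 in log2 terms. The methyltransferase SETD6, called higher, was classed elsewhere and is not among the 15. Over all genes tested 48.7% were called lower. With equal medians 9 were lower and after quantile normalization 8, against 33.9% and 30.9% of all genes tested, and 1 (KMT5C) was higher on both. NSD2 (ENSG00000109685, chromosome 4, 1871424 to 1982207), which dimethylates H3K36, had 19.56, 20.99 and 18.95 TPM in control and 6.95, 5.75 and 8.38 TPM in doxorubicin libraries, a log2 difference of -1.39 ± 0.13 (SE; limma adjusted p = 1.38e-05). Its paralogs were lower by less, with log2 fold changes of -0.68 for NSD1 and -0.32 for NSD3, the latter not called on the other 2 scales, and the ratio of NSD2 to NSD3 went from 1.545 ± 0.034 to 0.694 ± 0.112 (SD, n = 3 each).

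Of the KMT2 genes, KMT2A (chromosome 11, 118436464 to 118526832), a methyltransferase of H3K4, had 7.19, 7.64 and 5.56 TPM and then 2.69, 2.66 and 5.08 TPM. Its log2 difference was -0.83 ± 0.20 (SE; limma adjusted p = 0.00427). Doxorubicin replicate 3 stood close to the lowest control library. KMT2D, which acts at enhancers, went from 10.6 ± 1.43 to 6.22 ± 0.981 TPM (SD, n = 3 each) and had a log2 fold change of -0.69, and KMT2E and KMT2C had -0.63 and -0.53. KMT2A and KMT2D were lower on all 3 scales. SETD5, a SET domain protein, went from 18.2 ± 2.71 to 9.79 ± 2.45 TPM, and SETD2, the H3K36 trimethylase, from 9.81 ± 0.757 to 5.91 ± 0.776 TPM (SD, n = 3 each). Their log2 differences were -0.84 and -0.65.

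Among genes that write or read methylated H3K9, SUV39H1, CBX5 and CBX1 were called lower on the deposited values. SUV39H1, which trimethylates H3K9, had 5.13, 5.74 and 4.23 TPM and then 3.08, 2.75 and 4.09 TPM, a log2 difference of -0.49 (limma adjusted p = 0.0139). Its call was lost on the other 2 scales (adjusted p = 0.091 with equal medians and 0.394 after quantile normalization in limma) and without control replicate 2 (adjusted p = 0.0553). CBX5 and CBX1, which encode HP1 proteins that bind methylated H3K9, were lower on all 3 scales. CBX5 had 12.26, 12.02 and 10.49 TPM and then 6.24, 5.98 and 6.93 TPM, and CBX1 had 52.24, 56.8 and 49.75 TPM and then 34.53, 28.73 and 35.99 TPM, with log2 differences of -0.77 and -0.67 (limma adjusted p = 0.000275 and 0.000232). CBX2, a Polycomb reader, was at 0.41 to 0.94 TPM in control and 0.1 to 0.79 TPM in doxorubicin libraries, too low to test.

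The 2 writers of H4K20 methylation differed. KMT5A, the monomethylase, whose protein is tied to the cell cycle, had 20.98, 21.88 and 20.1 TPM in control and 13.18, 12.6 and 15.7 TPM in doxorubicin libraries, a log2 difference of -0.57 (limma adjusted p = 0.000935). KMT5C, a trimethylase, had 2.89, 2.56 and 2.72 TPM and then 2.99, 3.15 and 4.79 TPM, with an adjusted p of 0.0998 in limma, and it was called higher on the other 2 scales. The ratio of KMT5A to KMT5C was 7.73 ± 0.709 in control and 3.90 ± 0.572 after doxorubicin (SD, n = 3 each), without overlap.

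All 9 lysine demethylase genes tested were called lower, with log2 fold changes from -0.62 (PHF8) to -0.38 (PHF2) and a median of -0.52. Over all genes tested 48.7% were lower on this scale. With equal medians 4 of the 9 were lower and after quantile normalization 3, against 33.9% and 30.9% of all genes tested. PHF8, which removes methyl groups from H3K9 and H4K20, had 4.61, 4.46 and 4.47 TPM in control and 2.33, 2.36 and 3.13 TPM in doxorubicin libraries. KDM2B, which takes Polycomb proteins to CpG islands, went from 8.53 ± 0.717 to 5.37 ± 0.568 TPM (SD, n = 3 each). Their adjusted p-values were 0.0018 and 0.00189 from limma, and 0.0521 and 0.0534 after quantile normalization. KDM3B was lower on all 3 scales, the only demethylase for which this held.

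**Figure D3:**
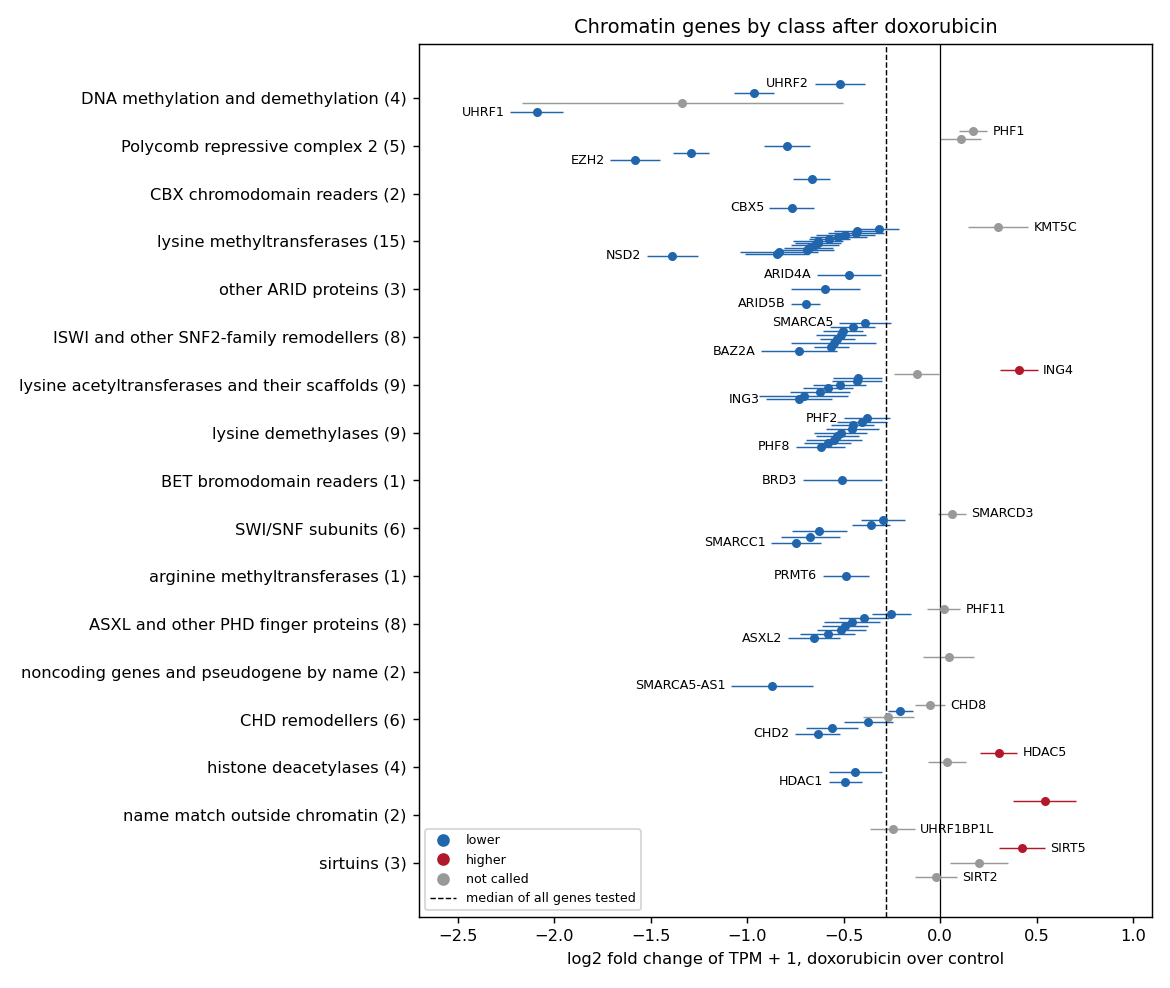
Difference in log2(TPM + 1), doxorubicin minus control, for the 88 chromatin genes tested, by class, with the number tested in parentheses. Points are limma estimates with their standard errors, coloured by call, and the dashed line is the median of all genes tested (-0.28). UHRF1, EZH2, NSD2 and PHF19 lie farthest to the left among called genes, and HDAC5, ING4, SIRT5 and SETD6 are the 4 called higher.

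Among the lysine acetyltransferases and their scaffold subunits, 7 of 9 were called lower and 1 higher (48.7% and 28.2% of all genes tested), with a median log2 fold change of -0.52. With equal medians 4 of the 9 were called lower, and after quantile normalization none was, against 33.9% and 30.9% of all genes tested. EP300 had 7.18, 8.36 and 5.38 TPM in control and 3.04, 2.93 and 6.07 TPM in doxorubicin libraries, and the groups overlapped because doxorubicin replicate 3 lay above 1 control library. Its log2 difference was -0.71 (limma adjusted p = 0.0191), and the adjusted p was 0.0664 without control replicate 2 and 0.0693 and 0.0749 without doxorubicin replicate 1 or 2, while neither other scale gave a call (adjusted p = 0.0659 with equal medians). CREBBP, its paralog, had a log2 difference of -0.43 (limma adjusted p = 0.0125, and 0.0633 without control replicate 1), which was not called on the other 2 scales either, and their ratio overlapped between the groups. KAT6B, KAT6A and KAT7 had log2 fold changes of -0.62, -0.58 and -0.52.

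Of 3 ING subunits, 1 was called lower, 1 higher and 1 not called. ING3, of the NuA4 acetyltransferase complex, had 7.36, 7.08 and 7.98 TPM in control and 4.99, 2.8 and 4.81 TPM in doxorubicin libraries, a log2 difference of -0.73 (limma adjusted p = 0.0035, and 0.0646 after quantile normalization). ING4 (ENSG00000111653, chromosome 12, 6650280 to 6663148), of the KAT7 complex, had 21.93, 25.69 and 27.04 TPM and then 34.91, 31 and 33.8 TPM, a log2 difference of 0.41 (limma adjusted p = 0.00392). ING5 had 19.44, 15.8 and 14.97 TPM and then 14.42, 15.15 and 16.08 TPM, which overlapped, and was not called on any scale (limma adjusted p = 0.332 on the deposited values). The ratio of ING3 to ING4 was 0.302 ± 0.031 in control and 0.125 ± 0.030 after doxorubicin (SD, n = 3 each).

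Histone deacetylase genes were split. HDAC1 (ENSG00000116478, chromosome 1, 32292086 to 32333635), a class I enzyme of the NuRD and SIN3 complexes, had 71.71, 82.59 and 71.52 TPM in control and 54.13, 48.56 and 57.07 TPM in doxorubicin libraries, a log2 difference of -0.49 (limma adjusted p = 0.000666), and it was lower on all 3 scales. HDAC4, a class IIa enzyme at 1.08 to 1.52 TPM in control and 0.63 to 0.9 TPM after doxorubicin, had a log2 difference of -0.44 (limma adjusted p = 0.0153), which was not called on the other 2 scales. HDAC5, of the same class, had 29.87, 33.22 and 28.39 TPM and then 37.68, 34.26 and 41.76 TPM, a log2 difference of 0.30 (limma adjusted p = 0.0154, and 0.0576 without control replicate 3). HDAC10 overlapped between the groups and was called higher only with equal medians (limma adjusted p = 0.024). The ratio of HDAC1 to HDAC5 went from 2.47 ± 0.061 to 1.41 ± 0.036 (SD, n = 3 each).

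None of the 3 sirtuins was called lower on any scale. SIRT5 (ENSG00000124523, chromosome 6, 13574529 to 13615158), a mitochondrial deacylase, had 3.89, 3.86 and 3.28 TPM in control and 5.07, 5.49 and 5.22 TPM in doxorubicin libraries, a log2 difference of 0.42 (limma adjusted p = 0.00833). SIRT3, the mitochondrial deacetylase, had 11.91, 12.79 and 13.46 TPM and then 11.9, 14.12 and 19.02 TPM, which overlapped (limma adjusted p = 0.233), and it was called higher on the other 2 scales (limma adjusted p = 0.019 after quantile normalization and 0.0127 with equal medians). SIRT2 had 35.47 to 44.4 TPM in control and 36.28 to 45.58 TPM after doxorubicin and was called higher only with equal medians (limma adjusted p = 0.0367). Of the 2 genes tested that were classed outside chromatin, SETD6 was called higher. It encodes a methyltransferase best known for a subunit of NF-κB. SETD6 had 3.93, 2.91 and 4.68 TPM and then 6.61, 4.89 and 6.52 TPM (log2 fold change 0.54, adjusted p = 0.0125 from limma, and 0.0522 without control replicate 2).

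**Figure D4:**
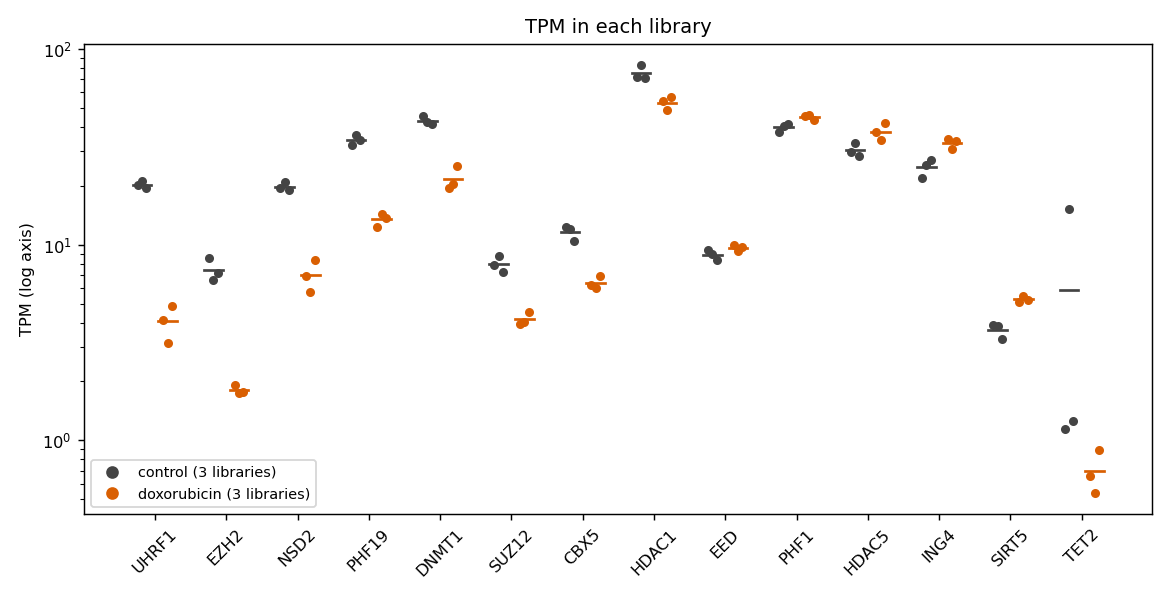
TPM of 14 chromatin genes in each of the 3 control (dark grey) and 3 doxorubicin (orange) libraries, on a log axis, with a bar at each group mean. The groups are apart for UHRF1, EZH2, NSD2, PHF19 and DNMT1 and overlap for EED, and 1 control library carries the TET2 mean.

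Subunits of the SWI/SNF remodellers had a median log2 fold change of -0.49. Of the 6 tested, 5 were called lower and 0 higher, against 48.7% lower over all genes tested. On each of the other 2 scales 3 were lower, with 1 (SMARCD3) higher with equal medians. Over all genes tested 33.9% were lower with equal medians and 30.9% after quantile normalization. SMARCC1, a core subunit, had 14.07, 15.23 and 14.29 TPM in control and 8.93, 6.67 and 9.39 TPM in doxorubicin libraries, and ARID1A, which defines the BAF complex, had 15.93, 17.52 and 14.69 TPM and then 8.34, 8.47 and 12.72 TPM, with log2 differences of -0.75 and -0.67 (limma adjusted p = 0.000694 and 0.003). SMARCA2, one of the alternative ATPases, had a log2 fold change of -0.36, which was called on the deposited and quantile normalized values and not with equal medians (adjusted p = 0.236 in limma). SMARCD3 had 33.32 to 34.01 TPM in control and 34.51 to 35.48 TPM after doxorubicin without overlap, and was called higher only with equal medians (limma adjusted p = 0.444 on the deposited values and 0.00432 with equal medians).

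All 8 genes of the ISWI and other SNF2-family remodellers were called lower (48.7% of all genes tested), with log2 fold changes from -0.73 (BAZ2A) to -0.39 (SMARCA5). With equal medians 5 were lower and after quantile normalization 4, against 33.9% and 30.9% of all genes tested. BAZ2A, of the complex that silences ribosomal DNA, had 11.6, 15.15 and 10.11 TPM in control and 5.97, 5.64 and 9.67 TPM in doxorubicin libraries. BAZ1A, a partner of SMARCA5, went from 22.2 ± 0.901 to 14.7 ± 0.502 TPM (SD, n = 3 each). Of 6 CHD genes, 4 were called lower and 0 higher, with CHD2 the lowest at -0.63. On each of the other 2 scales 2 of the 6 were lower, near the shares of all genes tested. The class median stood -0.039 from that of all genes tested. CHD8 had a log2 difference of -0.05 (limma adjusted p = 0.517) and was called higher with equal medians (limma adjusted p = 0.0277).

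CHD4, the NuRD ATPase, had the highest level of the 88 genes in both groups, 82.9 ± 4.16 TPM in control and 71.8 ± 1.89 TPM after doxorubicin (SD, n = 3 each). Its log2 difference was -0.21 (limma adjusted p = 0.0159) on the deposited values and 0.05 with equal medians, a change of sign, and the adjusted p was 0.074 without control replicate 3 and 0.0501 without doxorubicin replicate 1. By mean level, HDAC1 held place 2 in both groups. CBX1 and DNMT1 held places 3 and 4 in control and places 8 and 13 after doxorubicin, while PHF1 moved from place 6 to place 3.

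In the smaller classes, ARID5B, which works with the demethylase PHF2, went from 39.3 ± 0.699 to 23.9 ± 0.538 TPM (SD, n = 3 each; log2 fold change -0.70, adjusted p = 3.52e-05 from limma) and was lower on all 3 scales. ARID3A had a log2 difference of -0.60 (limma adjusted p = 0.0123, and 0.0529 without control replicate 1) with overlapping groups and no call on the other 2 scales. Of 8 ASXL and other PHD finger genes, 7 were called lower and 0 higher (48.7% and 28.2% of all genes tested). They were led by ASXL2 at -0.65 and PHF6 at -0.58, the latter not called after quantile normalization. On the other scales 4 of the 8 were lower with equal medians and 2 after quantile normalization (33.9% and 30.9% of all genes tested), and PHF11 was higher on both. BRD3, the 1 BET gene listed, overlapped between the groups at -0.51 (adjusted p = 0.0441 from limma) and was not called on the other 2 scales or in 4 of the fits that left out 1 library (adjusted p = 0.158 without control replicate 1, 0.0747 without control replicate 3, 0.124 without doxorubicin replicate 1 and 0.15 without doxorubicin replicate 2). PRMT6, the 1 arginine methyltransferase listed, went from 8.61 ± 0.7 to 5.85 ± 0.58 TPM (SD, n = 3 each) and was called lower, though not after quantile normalization (adjusted p = 0.175 in limma).

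Of the noncoding genes, SMARCA5-AS1 had 3.41, 4.9 and 3.1 TPM in control and 1.52, 0.98 and 2.49 TPM in doxorubicin libraries, a log2 difference of -0.87 (limma adjusted p = 0.00443). HDAC4-AS1 was listed at 0 in all control libraries and had 0.49, 1.1 and 1.2 TPM after doxorubicin, and KDM7A-DT had 0.41, 0.66 and 0.6 TPM and then 1.07, 1.26 and 1.05 TPM. Both had means under 1 TPM and were not tested. Whether strand was used in counting is not given in the sources used here, so reads of an antisense gene and of its partner may not have been told apart.

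The genes that partner these enzymes in the same complexes, taken from a list of 133 that the symbol rule does not match, were examined on the same scales. Of the 51 tested, 39 were called lower and 5 higher, their median was -0.46 in log2 terms, and after quantile normalization 17 were lower and 7 higher. Over all genes tested the shares were 48.7% lower and 28.2% higher, and 30.9% and 37.7% after quantile normalization, so the lower share of the partners lay near that of all genes on the quantile scale. All 7 Polycomb partners tested were called lower on the deposited values, with SCMH1 at -0.59 and PCGF6 at -0.46, and 3 of them after quantile normalization, where PCGF6 was not called (limma adjusted p = 0.435). ATAD2, a bromodomain ATPase, had the largest fall of these partners, from 5.8 ± 0.827 to 1.51 ± 0.372 TPM (SD, n = 3 each; log2 fold change -1.44, adjusted p = 2.7e-05 from limma). In SWI/SNF, ACTL6A and PBRM1 had log2 fold changes of -0.75 and -0.74. The 5 called higher were noncatalytic subunits, with ZNHIT1 of the SRCAP complex at 0.52, INO80B at 0.50, SAP18 at 0.43, BRMS1 at 0.36 and DMAP1 at 0.27.

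Chromatin genes had longer spans by median. Their median span was 78995 bp and that of all genes tested with a position was 32497 bp (GENCODE release 29, GRCh38, matched by Ensembl identifier). Across the 88 genes, log2 fold change and span had a Spearman correlation of -0.276, and across 5700 genes tested of -0.441, as a description over genes of the same 6 libraries. Of the 34 chromatin genes over 100000 bp, 32 (94.1%) were called lower, against 75.6% of the 1239 other genes of that span. Of the 10 up to 20000 bp, 5 were called lower, against 22.4% of 2163 others. Median log2 fold changes in these span groups were -0.56 and -0.52 over 100000 bp, and -0.13 and 0.22 up to 20000 bp. The part of span in the values of the chromatin genes was not tested.

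**Figure D5:**
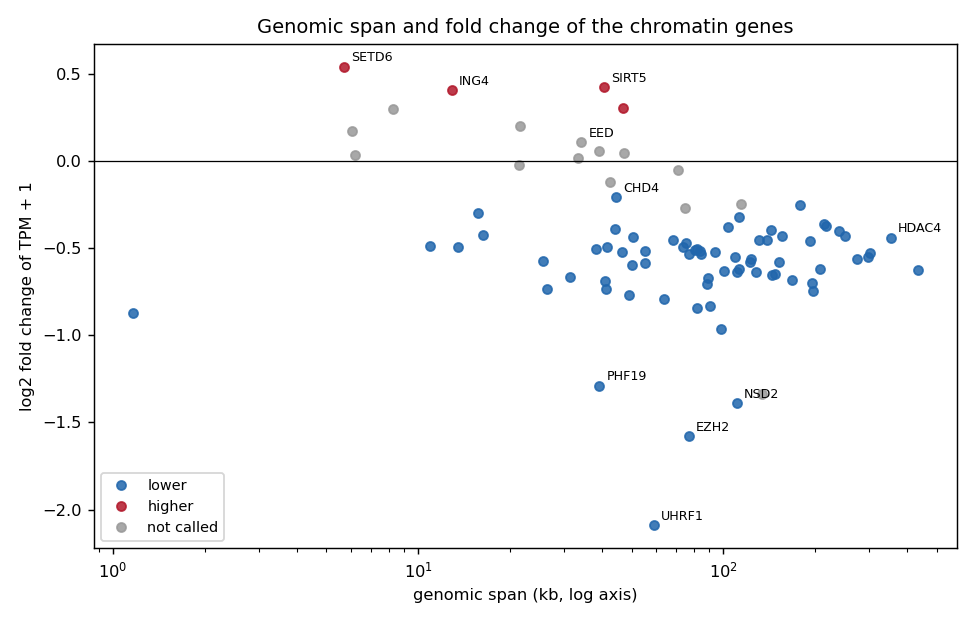
Genomic span in kb (log axis) against the log2 fold change of each of the 88 chromatin genes, coloured by call. SETD6 and ING4, called higher, are among the shortest, and UHRF1, EZH2, NSD2 and PHF19 lie below the other genes of their span.

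The chromatin genes also varied together among the doxorubicin libraries. Doxorubicin replicate 3 was the highest of the 3 in 72 of the 88 genes (81.8%, against 56.7% of all genes tested), and replicate 2 was the lowest in 62 (70.5%, against 52.0%). KMT2A, EP300, BAZ2A, ARID1A and BRD3 are examples in which replicate 3 stood apart, at 1.5 to 2.0 times the group median. Without doxorubicin replicate 3, 69 genes were called lower, and without replicate 2, 62 were.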

How the data were processed

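RNA of control and doxorubicin-treated WI-38 cells was sequenced from both ends, with 3 libraries per group. The 3 libraries with oridonin were left out. The table analysed, deposited by the authors, holds genes past the study's fold change of 1.2 and p under 0.05, with a value per library whose unit the header does not name. Not all of them pass that fold change on the per-library values. The deposited values were read as TPM, made by the authors from the reads, and FPKM cannot be told apart from it in a table of part of the genes. The submitters' processing notes name CASAVA, HISAT2, StringTie, RSEM, DESeq2 and edgeR, with no role, and GRCm38, a mouse build, although the identifiers are human. Positions are therefore those of GENCODE release 29 (GRCh38) by identifier. The table also holds group means, fold changes and p-values of the authors, which were not used. TPM keeps no depth, so no counting interval is given.

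The members, classes and lists were chosen with earlier results of these data known. Genes averaging 1 TPM or more in the 6 libraries (5721 of 6499) entered 1 model of the 2 groups on log2(TPM + 1), by limma 3.58.1 under R 4.3.3 with the trend and robust options of eBayes, with Benjamini-Hochberg adjustment over these genes. The fit was tested on simulated data. Named genes are up to 2 called lower and 2 called higher per class by size of log2 fold change, plus a list of well-known chromatin genes where listed. Genes of a ratio, of an untested or uncalled member, and other members named only by their value were chosen after their values were seen. Alternatives were another pseudocount (0.1), other filters (none, and a mean of at least 5 TPM), 2 other scalings (quantile normalization, and equal medians of the genes tested), the replicate number as a block, plain eBayes, 3 other thresholds, and each library left out. Tables were handled in Python 3.11.15 with pandas 2.3.3. No single exact test is given, since 3 libraries against 3 cannot go below p = 0.1.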

Additional observations from a re-analysis of the deposited data

How the results depend on the processing

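The count of chromatin genes called lower (70) was 28 at a fold change over 1.5, 43 with equal medians and 33 after quantile normalization, and ran from 56 to 69 with each library left out. The count called higher (4) was 2 with a mean of at least 5 TPM, 14 with equal medians, 10 after quantile normalization and 0 at a fold change over 1.5 (adjusted p from limma; at a fold change over 1.2 and an unadjusted p under 0.05 it was 4), and ran from 3 to 5 with a library left out. With a mean of at least 5 TPM the median over all genes tested was 0.05 rather than -0.28. The log2 fold change of CHD4 turned to 0.053 with equal medians.

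Class medians are given relative to that of all genes tested. They were -0.19 for ASXL and PHD finger genes, -0.039 for CHD, -0.87 for DNA methylation, -0.24 for ISWI, -0.51 for Polycomb, -0.21 for SWI/SNF, 0.080 for deacetylases, -0.24 for acetyltransferases, -0.23 for demethylases, -0.35 for methyltransferases, -0.31 for other ARID genes and 0.48 for sirtuins. With a mean of at least 5 TPM they were -0.47, -0.32, -1.01, -0.56, -0.39, -0.54, -0.0099, -0.48, -0.57, -0.68, -0.69 and 0.043 in that order. With no filter they were -0.33, -0.17, -1.003, -0.38, -0.65, -0.35, -0.055, -0.37, -0.37 and -0.49 for the first 10. After quantile normalization they were -0.99 for DNA methylation, -0.41 for Polycomb, -0.035 for deacetylases and -0.29 for methyltransferases. With a pseudocount of 0.1 they were -1.12 for DNA methylation and -0.59 for Polycomb. With each library left out they ran from -1.12 to -0.72 for DNA methylation, -0.56 to -0.48 for Polycomb, 0.026 to 0.34 for deacetylases, -0.27 to -0.16 for demethylases and -0.38 to -0.29 for methyltransferases, -0.24 to -0.11 for ASXL and PHD finger genes, -0.084 to -0.023 for CHD, -0.41 to -0.20 for other ARID genes, -0.27 to -0.22 for ISWI, -0.26 to -0.18 for SWI/SNF, -0.31 to -0.19 for acetyltransferases and 0.36 to 0.61 for sirtuins. The 2 filters change the genes tested and so the median they are set against. Leaving out a library also changes the genes tested, with 87 chromatin genes rather than 88 without any 1 control library. The DNA methylation median lies between DNMT1 and the uncalled TET2. Without control replicate 2, TET2 averaged under 1 TPM and left this class, which then stood at -0.72. Without control replicate 1 or 3, HDAC4 averaged under 1 TPM and left the deacetylases, which then stood at 0.34 in both fits. The cause of the other shifts was not tested.

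Whether the replicate numbers pair the libraries is not stated. The deviations of same-numbered libraries from their group means correlated at -0.063, -0.193 and -0.230 across genes. Deviations within a group are tied to each other, so these values cannot settle the question. With the replicate number as a block, 66 genes were called lower and 4 higher. The unknown depth limits what can be said of the 6 genes under 1 TPM.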
